A study of Mus musculus with 6 samples.

Results

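The HOX genes of the mouse were described in cells sorted from cartilage, 39 genes out of the 54532 counted. They were taken as every protein-coding gene whose symbol is Hoxa, Hoxb, Hoxc or Hoxd followed by a number, so no value decided which genes entered. The family itself was chosen with earlier results of these data known. RNA sequencing was done on 6 libraries, 3 of Gli1+ cells and 3 of Gli1- cells, from *Gli1-CreERT2; tdTomato* mice of 1 month of age on a c57BL/6 background, collected 24 h after tamoxifen (TAM). Both populations were sorted as CD45- CD31- Ter119- cells, and Gli1+ cells were those positive for tdTomato. In these mice the *Gli1* promoter drives a Cre recombinase that TAM activates, so a tdTomato- cell is one in which the reporter was not switched on, which need not mean that it lacked *Gli1*. The labels name the growth plate as the tissue, while the study's text on the sequencing names costal cartilage, the cartilage of the ribs.

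HOX genes encode homeodomain transcription factors that lie in 4 clusters, and within a cluster the order of the genes along the chromosome follows the order in which they are used along the body axis. Genes at the same place in different clusters form a paralogue group, numbered from 1 at the head end to 13 at the tail end. Loss-of-function and gain-of-function studies in mice tie the middle groups to the neck, thorax and ribs, group 10 to rib-free lumbar vertebrae, group 11 to the sacrum and the forearm and lower leg, and group 13 to the digits and tail. Adult skeletal cells are known to keep much of the HOX pattern of the place they come from.

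HOX transcripts in both populations came mostly from groups 4 to 8. Of the 39 genes, 12 had more than 3 counts in each of the 6 libraries, the threshold used here for detection, against 52.2% of the 22046 protein-coding genes in the table. They were *Hoxa3*, *Hoxa5*, *Hoxa6* and *Hoxa7* of cluster A on chromosome 6, *Hoxb4*, *Hoxb6* and *Hoxb9* of cluster B on chromosome 11, *Hoxc4*, *Hoxc5*, *Hoxc6* and *Hoxc8* of cluster C on chromosome 15, and *Hoxd8* of cluster D on chromosome 2. At this threshold these genes cover 7 of the 13 paralogue groups, from group 3 to group 9 without a gap. Group 6 was the only group of which every member, 3 of 3, was detected in all libraries. Of the 15 members of groups 4 to 8, 10 were detected in all 6 libraries, and of the 12 members of groups 10 to 13, 0 were.

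**Figure D1:**
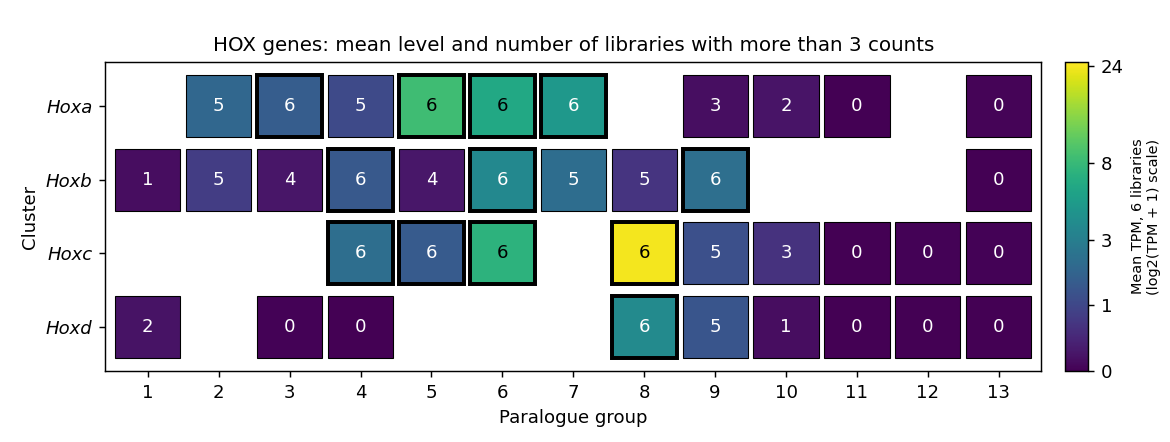
Each of the 38 squares is 1 HOX gene, placed by cluster (vertical axis) and paralogue group (horizontal axis), and its colour is the mean TPM (transcript level per length of the gene) over 6 libraries on a log2(TPM + 1) scale. The number in a square is how many of the 6 libraries held more than 3 counts, and thick frames mark the 12 genes with 6, which lie in groups 3 to 9.

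The 4 promoters shown here all belong to cluster A and set a pair of genes detected in every library beside a pair from the tail end of the same cluster. They are RefSeq promoters of GRCm38.p6, 300 bases around the annotated start, written 5′ to 3′ with each CG dinucleotide in capitals. *Hoxa5*, a gene of lung and neck-to-thorax patterning, held 608 counts over the 6 libraries and *Hoxa7* 471, while *Hoxa11* held 0 and *Hoxa13* held 3.
Hoxa5, chr6:52204538-52204837, minus strand: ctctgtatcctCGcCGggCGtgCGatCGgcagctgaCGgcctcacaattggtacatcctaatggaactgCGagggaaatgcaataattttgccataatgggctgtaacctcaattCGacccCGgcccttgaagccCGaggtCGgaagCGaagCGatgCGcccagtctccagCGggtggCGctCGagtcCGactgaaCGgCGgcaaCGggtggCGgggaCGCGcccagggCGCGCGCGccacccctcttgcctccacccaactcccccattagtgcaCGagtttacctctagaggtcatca
Hoxa7, chr6:52218524-52218823, minus strand: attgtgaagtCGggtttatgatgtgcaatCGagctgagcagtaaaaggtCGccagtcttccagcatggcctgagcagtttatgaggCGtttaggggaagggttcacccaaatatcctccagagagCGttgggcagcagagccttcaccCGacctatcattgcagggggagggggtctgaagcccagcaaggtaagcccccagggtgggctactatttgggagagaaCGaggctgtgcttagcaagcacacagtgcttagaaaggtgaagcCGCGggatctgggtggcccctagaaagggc
Hoxa11, chr6:52245761-52246060, minus strand: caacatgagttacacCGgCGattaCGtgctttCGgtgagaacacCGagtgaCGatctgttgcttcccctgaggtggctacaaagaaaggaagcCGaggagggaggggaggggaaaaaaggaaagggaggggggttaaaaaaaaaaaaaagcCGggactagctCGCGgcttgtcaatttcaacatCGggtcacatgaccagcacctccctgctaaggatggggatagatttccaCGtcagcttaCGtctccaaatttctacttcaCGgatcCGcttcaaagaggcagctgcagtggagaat
Hoxa13, chr6:52260831-52261130, minus strand: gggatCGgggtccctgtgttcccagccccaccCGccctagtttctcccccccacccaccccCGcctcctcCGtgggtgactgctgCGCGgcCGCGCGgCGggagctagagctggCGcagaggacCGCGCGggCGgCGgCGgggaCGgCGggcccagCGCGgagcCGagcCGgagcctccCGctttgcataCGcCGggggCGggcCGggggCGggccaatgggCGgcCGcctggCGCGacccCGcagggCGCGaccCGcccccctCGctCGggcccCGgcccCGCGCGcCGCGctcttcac
CG dinucleotides numbered 29 for *Hoxa5*, 9 for *Hoxa7*, 15 for *Hoxa11* and 45 for *Hoxa13*, so the pair detected in every library and the pair at 0 or 3 counts did not separate by this number. A promoter was found for 22 of the 39 genes, 24 promoters in all. The 7 promoters of genes detected in all libraries had a median of 14 CG dinucleotides (6 to 29), and the 9 promoters of groups 10 to 13 had a median of 21 (4 to 45). Of all 32851 promoters, 94.6% held at least 1 CG and the median was 7. These counts describe the sequence alone, as no methylation or chromatin was measured.

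The head-end groups 1 to 3 held little. *Hoxa3*, a gene of neck organs and the first vertebrae, was the only one of their 8 members with more than 3 counts in every library. Its counts in Gli1+ replicates 1, 2 and 3 were 70, 44 and 37, and those in Gli1- replicates 1, 2 and 3 were 60, 38 and 57. The ranges overlapped, and that of the Gli1+ libraries was the wider. *Hoxa2* and *Hoxb2*, which pattern the hindbrain, reached 41 and 33 counts in their highest library. *Hoxb3* reached 10 counts, *Hoxd1* 6, *Hoxb1* 4 and *Hoxd3* 2. More than 50% of the exonic bases of *Hoxb3* and *Hoxd3* are shared with another gene, for *Hoxb3* only with one on the other strand. Reads that fall on shared bases may not have been counted, so the few counts of both genes may be too low.

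Group 4 and group 5 genes act at the neck and the start of the rib cage. *Hoxc4* had 4, 29 and 42 counts in the Gli1+ libraries and 43, 26 and 49 in the Gli1- libraries. *Hoxb4* had 46, 13 and 10 counts against 23, 17 and 7. The lowest library for *Hoxc4* was thus the highest for *Hoxb4*, namely Gli1+ replicate 1. *Hoxa4* had 26 counts in its highest library but 0 in Gli1+ replicate 1. *Hoxd4*, which is listed under 2 identifiers in the table, was listed at 0 in every library under both. The 2 entries overlap each other, and 52.3% of the exonic bases of the one found in GENCODE M21 are shared with other genes, so reads that fall on both entries may not have been counted and this 0 does not show that the transcript was missing.

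*Hoxa5* had 14, 193 and 45 counts in the Gli1+ libraries and 77, 187 and 92 in the Gli1- libraries. Replicate 2 was the highest library in both populations, and the lowest was again Gli1+ replicate 1. *Hoxc5* varied far less, with 21, 27 and 20 counts against 32, 38 and 24. *Hoxb5* reached 8 counts in its highest library.

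Group 6 genes act in the thorax, and placing one of them under an early trunk promoter is known to give extra ribs. *Hoxc6* had 30, 111 and 82 counts in the Gli1+ libraries and 86, 160 and 141 in the Gli1- libraries. The Gli1- library was the higher of each numbered pair, but the populations overlapped in CPM, because Gli1+ replicate 2 lay above Gli1- replicate 1. On the TPM scale, which also takes in the total of transcript levels of a library, they did not overlap, at 2.96, 6.05 and 6.31 TPM against 6.75, 8.99 and 11.7 TPM, as held for 5.01% of all genes tested in this direction. *Hoxb6* had 13, 55 and 43 counts against 43, 65 and 34. *Hoxa6* had 80, 11 and 13 counts against 11, 11 and 27, so that its high mean in Gli1+ cells came from replicate 1 alone.

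*Hoxa7*, of the mid-thorax, had 79, 107 and 44 counts against 81, 111 and 49, with each number at a similar height in both populations. *Hoxb7* had 51 counts in Gli1+ replicate 2 and 28 in replicate 3, both above its highest Gli1- library at 19, but 0 in Gli1+ replicate 1.

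*Hoxc8*, a group 8 gene that acts in the thorax and rib cage, had the highest mean level of the HOX genes. Its counts were 589, 499 and 107 in the Gli1+ libraries and 197, 786 and 148 in the Gli1- libraries. Each population held both high and low libraries, and the highest and the lowest of the 6 belonged to different populations. *Hoxd8* was among the steadiest, with 75, 63 and 43 counts against 67, 48 and 36. *Hoxb8* reached 18 counts and was at 0 in Gli1+ replicate 1.

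Group 9 genes act from the lower thorax on and also take part in the base of the limb and the sternum. *Hoxb9* had 18, 43 and 54 counts against 19, 10 and 48, with replicate 3 highest in both populations. *Hoxc9* reached 37 counts but was at 0 in Gli1+ replicate 1. *Hoxd9* had between 2 and 26 counts in each library, and *Hoxa9* reached 9.

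The tail-end groups were at or near 0. Groups 10 to 13 together held 75 counts over the 6 libraries, out of 6660 for all HOX genes. Of these 75 counts, 68 fell in group 10, which acts at the lumbar vertebrae and the thigh and upper arm. *Hoxc10* had 19, 4 and 1 counts in the Gli1+ libraries and 4, 3 and 2 in the Gli1- libraries, *Hoxa10* reached 18 counts in Gli1+ replicate 2, and *Hoxd10* reached 4. All 3 members of group 11 were at 0 in every library, group 12 held 1 count (*Hoxc12*) and group 13 held 6 counts (*Hoxa13*, *Hoxb13* and *Hoxc13*). In all, 6 HOX genes were at 0 in every library (*Hoxa11*, *Hoxc11*, *Hoxd4*, *Hoxd11*, *Hoxd12* and *Hoxd13*), against 20.6% of protein-coding genes, with the limit on *Hoxd4* given above. For the other 5, a count of 0 allows up to 3 counts, which is 0.161 to 0.175 CPM (counts scaled to a common library total) in a single library and 0.0279 CPM over the 6 libraries together, for counting error alone. Of these, *Hoxa11* shares 35.0% of its exonic bases with another gene and *Hoxd11* 10.8%, and reads on those bases may not have been counted.

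Genes were compared with each other as TPM, computed from the counts and the gene length given in the table. *Hoxc8* had a mean of 23.5 TPM ± 16.8 (SD, n = 6 libraries) and was the highest HOX gene in 5 of 6 libraries, while 22.5% of protein-coding genes had a higher mean than it. In Gli1- replicate 3 *Hoxc6* (11.7 TPM) lay above *Hoxc8* (10.5 TPM). *Hoxa5* followed with 8.46 TPM ± 4.77 and *Hoxc6* with 7.13 TPM ± 2.97. The order of these neighbours was not resolved, since *Hoxa5* was above *Hoxc6* in 3 of 6 libraries.

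*Hoxa6* came next by its mean of 6.07 TPM, but its median was 2.57 TPM, as 1 library stood at 21.7 TPM. *Hoxa7* had a mean of 4.70 TPM ± 1.35, *Hoxd8* 3.67 TPM ± 1.59 and *Hoxb6* 3.57 TPM ± 1.04, and *Hoxd8* was above *Hoxb6* in only 2 of 6 libraries. *Hoxb9*, *Hoxc4*, *Hoxb7*, *Hoxa2*, *Hoxa3*, *Hoxc5*, *Hoxb4*, *Hoxd9*, *Hoxc9* and *Hoxa4* lay between 1.07 and 2.23 TPM and were each above the next of them in 2 to 5 of 6 libraries. The remaining members were below 1 TPM on average.

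As shares of the summed HOX TPM of a library, groups 4 to 8 made up 88.5%, 83.95% and 79.9% in the Gli1+ libraries and 81.0%, 89.7% and 82.3% in the Gli1- libraries. The means were 84.1% ± 4.3 and 84.4% ± 4.7 (SD, n = 3 each), a difference smaller than either SD. Groups 1 to 3 made up 6.6% ± 1.3 in Gli1+ and 8.7% ± 2.0 in Gli1- cells, and group 9 made up 7.6% ± 3.9 and 6.3% ± 2.8. Groups 10 to 13 made up 1.7% ± 0.7 and 0.7% ± 0.4, resting on 2 to 30 counts per library. The differences for groups 1 to 3 and for groups 10 to 13 exceeded 1 SD, but the libraries of the populations overlapped in both.

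Within the middle groups the balance shifted from library to library. Group 8, mostly *Hoxc8*, took 51.2%, 33.9% and 21.1% of the HOX TPM in the Gli1+ libraries and 27.4%, 44.2% and 20.3% in the Gli1- libraries. The summed TPM of all HOX genes was 109, 79.7 and 49.97 against 67.3, 91.5 and 70.1. Without *Hoxc8* it was 59.8, 56.6 and 43.0 against 54.2, 54.0 and 59.7, so most of the spread between libraries came from that gene. By cluster, cluster C made up 43.9% ± 7.5 in Gli1+ and 46.03% ± 8.7 in Gli1- cells, cluster A 31.2% ± 3.9 and 32.7% ± 4.0, cluster B 16.99% ± 10.1 and 15.1% ± 3.8, and cluster D 7.9% ± 1.7 and 6.1% ± 4.0. None of these cluster differences exceeded the larger of the paired SDs.

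**Figure D2:**
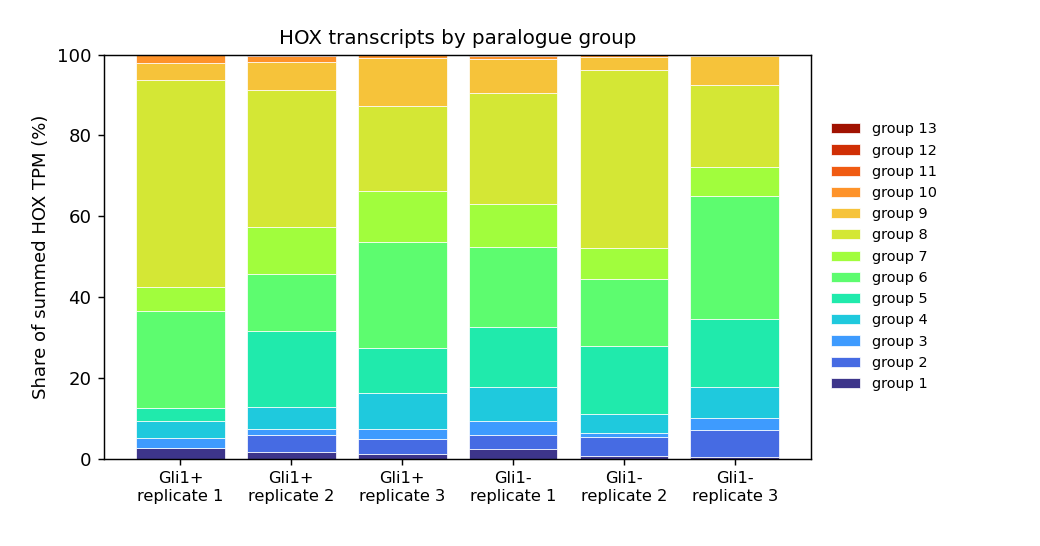
Each bar is 1 library and shows the share of its summed HOX TPM, in percent, that fell in each of the 13 paralogue groups. Groups 4 to 8 filled between 79.9% and 89.7% of every bar, while group 8 ranged from 20.3% to 51.2%.

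Whether the HOX genes differed between the populations was asked with edgeR's quasi-likelihood test on the counts of all genes. Of the 39 HOX genes, 18 passed the low-count filter, among them the 12 detected in all libraries and *Hoxa2*, *Hoxb2*, *Hoxb7*, *Hoxc9* and *Hoxd9*. A gene was called at an adjusted p under 0.05 and a |log2FC| over 1. Of the 18, 0 were called, and 0 had an unadjusted p under 0.05, beside 0% and 3.47% of the 14801 genes tested. With 0 genes called anywhere in this fit, the count of called HOX genes says little of the HOX genes themselves. HOX genes called numbered 0 as well where other settings called 0.936% of all genes (no low-count filter), 0.203% (DESeq2 Wald test) or 2.89% (DESeq2 with the replicate number as a block). Among so few HOX genes, 0 is near these shares and says little either. DESeq2 also gave some of them no adjusted p, so they could not be called. These included *Hoxb2* and *Hoxd9* in both DESeq2 fits, and *Hoxb4* and *Hoxc9* with the block. With that block in edgeR, 0 of the 18 had an unadjusted p under 0.05, beside 8.61% of all genes tested.

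In 0 of the 18 did the CPM of the populations not overlap, against 8.49% of all genes tested (4.04% higher and 4.45% lower in Gli1+ cells). With 3 libraries against 3, an exact permutation test cannot give a p below 0.1. The log2FC (Gli1+ minus Gli1-) was above 0 for 7 and below 0 for 11 of the 18, with a median of -0.09 beside 0.00 for all genes tested. Its lowest value was -1.13 for *Hoxa2*, and 15 of the 18 values were smaller than their standard error (SE). The SE lay between 0.61 and 1.36, and the 95% interval of all 18 reached beyond a log2FC of 1 in at least 1 direction. A 2-fold difference in at least 1 direction thus lay within the interval of each of them. This fit took no account of the replicate number, so its SEs and intervals also hold differences between the numbers. Leaving out Gli1+ replicate 2 brought *Hoxa5* to an unadjusted p of 0.0397 by edgeR with a log2FC of -2.19 (lower values past that threshold made up 4.97% of all genes tested), and no other library left out brought any HOX gene there.

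*Hoxc8*, with 31.2, 30.6 and 5.62 CPM in the Gli1+ and 10.2, 52.1 and 7.83 CPM in the Gli1- libraries, had a log2FC of -0.06 (SE 0.88, 95% interval -2.07 to 1.96). *Hoxc6* had the smallest unadjusted p of the HOX genes, 0.26 by edgeR (adjusted p = 0.9999), with a log2FC of -0.82 (SE 0.68, interval -2.39 to 0.74). The Gli1+ library of *Hoxc6* was the lower of all 3 numbered pairs. With the replicate number as a block in edgeR, *Hoxc6* had a log2FC of -0.96 (SE 0.41, unadjusted p = 0.0612, adjusted p = 0.608). That block moved *Hoxa5* from a log2FC of -0.51 to -1.13 (SE 0.58, unadjusted p = 0.103 by edgeR). The SE did not fall for every gene, as that of *Hoxa6* rose from 1.00 to 1.09.

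*Hoxd8* and *Hoxa3* had the smallest SEs, and their log2FC values were 0.24 (interval -1.19 to 1.67) and -0.05 (interval -1.46 to 1.36). For *Hoxa5*, *Hoxb6*, *Hoxc4* and *Hoxc5* the values were -0.51, -0.40, -0.64 and -0.51, and for *Hoxa7* -0.11. *Hoxa6*, *Hoxb9* and *Hoxb4* had values of 1.03, 0.61 and 0.48. The value of *Hoxa6* rested on Gli1+ replicate 1, without which it was -0.44, and so did that of *Hoxb4*, which was then -0.46. The members of a paralogue group did not always share a sign, as *Hoxb9* and *Hoxd9* lay above 0 and *Hoxc9* below it.

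**Figure D3:**
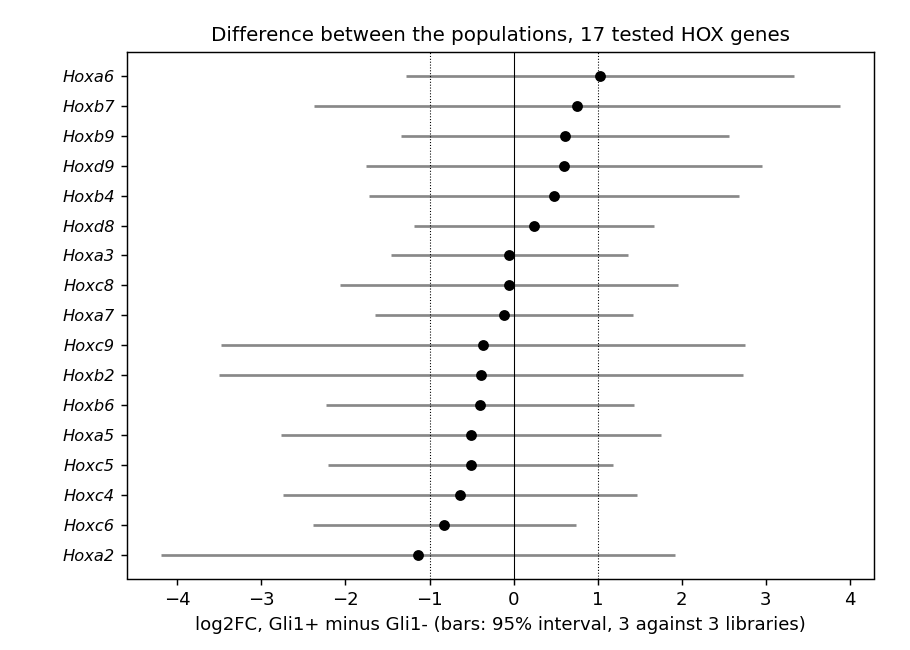
Points are the log2FC (Gli1+ minus Gli1-, horizontal axis) of 17 tested HOX genes, ordered by value, and bars are 95% intervals from the edgeR fit on 3 against 3 libraries. Dotted lines mark a log2FC of -1 and 1, and every bar crosses 0.

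Libraries with the same number in the labels were taken to pair, since the study sorted both populations from the same mice. Their deviations also moved together across genes, least so for number 1 (correlation 0.223). Gli1+ replicate 1 was closer to Gli1- replicate 3 (0.274) than to its own partner. Of the 18 tested HOX genes, 3, *Hoxd8* and *Hoxd9* among them, were higher in Gli1+ cells in all 3 pairs, beside 17.6% of all genes tested. Another 5 (*Hoxa2*, *Hoxa5*, *Hoxa7*, *Hoxc5* and *Hoxc6*) were lower in all 3 pairs, beside 19.9%. The number itself went with HOX levels as well. In 9 of the 18 genes (*Hoxa2*, *Hoxa5*, *Hoxa7*, *Hoxb2*, *Hoxb6*, *Hoxb7*, *Hoxc5*, *Hoxc6* and *Hoxc9*) number 2 was the highest library of both populations, which held for 31.7% of all genes tested. Number 1 was highest in both for *Hoxa3*, *Hoxb4*, *Hoxd8* and *Hoxd9*, and number 3 for *Hoxb9* and *Hoxc4*. In total 15 of 18 had the same highest number in both populations, against 57.1% of all genes tested.

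**Figure D4:**
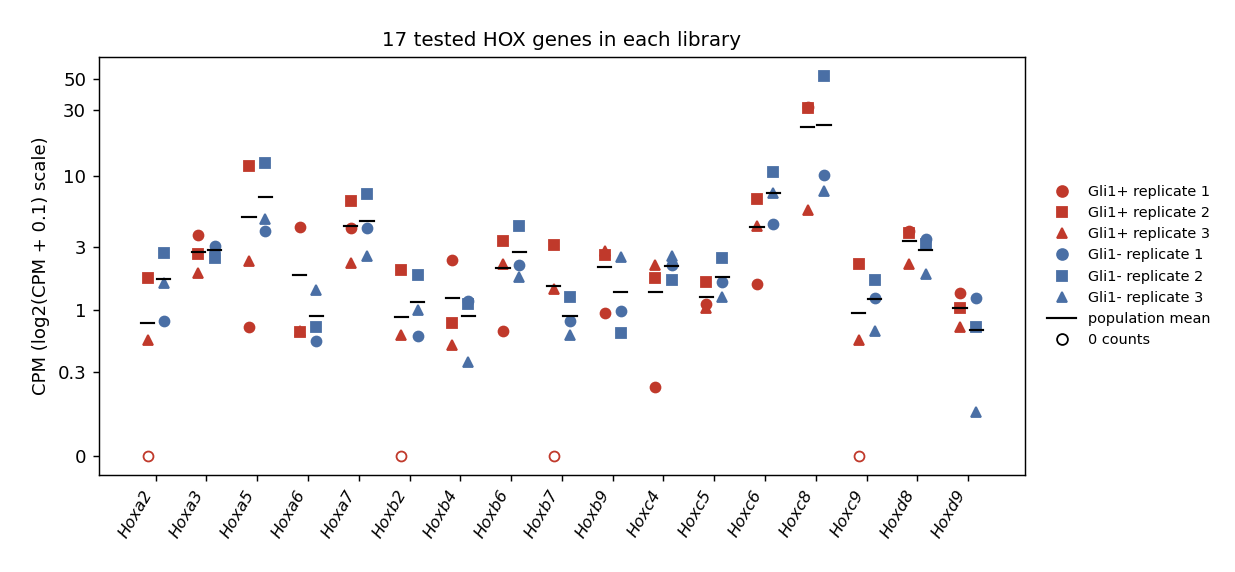
CPM of 17 tested HOX genes on a log2(CPM + 0.1) scale (vertical axis), Gli1+ libraries in red and Gli1- libraries in blue, with a marker shape for each replicate number, open circles for 0 counts and bars for the population means (n = 3). The colours overlap in every gene, and the 4 open circles all belong to Gli1+ replicate 1.

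Gli1+ replicate 1 stood apart from the other libraries. It held a count for 15000 genes, against 20666 to 23360 in the others, at a total of 18159196 counts within the range of all libraries (17114101 to 18602482). Of 18 HOX genes with more than 3 counts in each of the other 5 libraries, 6 were at 0 in it, namely *Hoxa2*, *Hoxa4*, *Hoxb2*, *Hoxb7*, *Hoxb8* and *Hoxc9*. Of all genes of this kind 9.19% were at 0 in it. Among the 1159 of them whose mean count in the other libraries lay between 12.2 and 25.6, 40.9% were at 0. That range was set by the lowest and highest of the 6 HOX genes at 0. It held 8 HOX genes, those 6 among them. Because the 6 set the range, it gives no fair comparison of HOX genes with the 40.9%. In each of the other libraries, 0.0938% to 0.333% of genes of this kind were at 0. Without this library, 18 HOX genes were detected in place of 12, and *Hoxa2* and *Hoxb2* extended the detected groups to group 2, while group 9 remained the last. The source of these zeros was not tested.

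*Gli1* itself had 86, 104 and 152 counts in the Gli1+ libraries and 14, 19 and 46 in the Gli1- libraries, higher in each Gli1+ library than in any Gli1- library. All 8 chondrocyte markers (*Col2a1*, *Acan*, *Sox9* and 5 others) had more than 3 counts in every library, with summed CPM of 7940 to 18510 in Gli1+ and 6009 to 24265 in Gli1- cells. The 8 markers of perichondrial fibroblasts summed to 112 to 828 CPM in Gli1+ and 491 to 2856 CPM in Gli1- cells, and all 8 had a log2FC below 0. Leukocyte markers summed to 8.98 to 44.4 CPM in Gli1+ and 10.8 to 1904 CPM in Gli1- cells, the highest being Gli1- replicate 1, despite the sort against CD45. Summed markers lay at 2.39 to 3.15 against 4.02 to 13.96 CPM for endothelial cells, 3.62 to 37.2 against 5.92 to 31.6 CPM for skeletal muscle, and 78.4 to 469 against 102 to 208 CPM for erythroid cells, most of it *Tfrc*, a transferrin receptor that other cells use too. Without Gli1- replicate 1, 0 HOX genes had an unadjusted p under 0.05 by edgeR. The markers' part in the HOX levels was not tested, and in such bulk samples fewer cells of a type and less RNA per cell cannot be told apart.

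HOX proteins bind DNA together with partners of the PBX, MEIS and PKNOX families, and 9 of 9 genes for these were tested, of which 0 were called. Their log2FC was above 0 for 2 and below 0 for 7, with a median of -0.45. *Pknox1* (28.9 TPM), *Pbx2* (7.77 TPM) and *Pbx3* (5.16 TPM) had the highest mean levels.

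Of 20 chromatin regulators of HOX clusters, the Polycomb and Trithorax proteins among them, 19 were tested and 0 had an unadjusted p under 0.05, with 8 values above and 11 below 0 and a median log2FC of -0.15. *Kdm6b*, a demethylase of the Polycomb mark, had the highest mean at 171 TPM, followed by *Phc2* (92.9 TPM) and *Rnf2* (71.7 TPM), both parts of a Polycomb complex. Of 15 genes of retinoic acid signalling and the CDX factors, which set HOX expression in the embryo, 9 were tested and 0 had an unadjusted p under 0.05. *Rarg* (88.0 TPM), *Cyp26b1* (78.3 TPM) and *Rxra* (34.5 TPM) were highest, and *Cdx2* and *Cdx4* were at 0 in every library.

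Factors that mark limb position were low, as 0 of 7 had more than 3 counts in all libraries. Their highest mean levels were 1.06 TPM for *En1* of the ventral limb and 0.603 TPM for *Shox2* of the upper arm and thigh. Next came *Tbx4* of the hindlimb at 0.521 TPM. *Tbx4* had 0, 6 and 8 counts in the Gli1+ libraries and 13, 17 and 18 in the Gli1- libraries, without overlap. In CPM, 4.45% of all genes tested did not overlap in this direction. *Tbx5* of the forelimb, named after its values were seen, had 0, 22 and 14 counts against 12, 25 and 7. The 0 of both fell in Gli1+ replicate 1. No limb sample was analysed here beside them.

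Of 8 factors of the sclerotome, the embryonic source of vertebrae and ribs, and of the somite it arises from, 6 were tested and 0 were called. The log2FC was above 0 for 2 of the 6 and below 0 for 4, with a median of -0.62. Summed over all 8, levels were 16.5 to 38.1 CPM in Gli1+ and 44.8 to 67.1 CPM in Gli1- cells. *Foxc2* (34.7 TPM), *Meox1* (3.75 TPM) and *Meox2* (2.98 TPM) had the highest mean levels. In 2 of the 6 the CPM of the populations did not overlap, *Nkx3-2* among them. This held for 8.49% of all genes tested (4.04% higher and 4.45% lower in Gli1+ cells). *Nkx3-2*, a repressor that promotes cartilage, had 21, 50 and 28 counts in the Gli1+ libraries and 4, 9 and 10 in the Gli1- libraries, without overlap. Its log2FC was 2.07 (SE 0.90), with an unadjusted p of 0.0493 and an adjusted p of 0.9999 by edgeR. With 1 library left out, its log2FC was 1.52 to 2.32 and its unadjusted p 0.0254 to 0.242 by edgeR. The unadjusted p was 0.0833 with limma-voom and 0.0303 with the DESeq2 Wald test.

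Of 16 non-coding genes within or beside the HOX clusters, 2 passed the filter, *Hotairm1* and *Hoxaas2*, both of cluster A. *Hotairm1*, at the head end of that cluster, had 0, 156 and 53 counts in the Gli1+ libraries and 27, 82 and 37 in the Gli1- libraries, with replicate 2 highest in both. *Mir615* and *Mir196a-1* were next by mean TPM, but held at most 6 and 4 counts. *Hottip* and *Hoxa11os* at the tail end of cluster A and *Hotair* in cluster C were at 0 in every library, as were 3 microRNA genes (*Mir10a*, *Mir196b* and *Mir196a-2*), whose mature RNAs a poly(A) library is not made to measure.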

How the data were processed

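RNA of 3 Gli1+ and 3 Gli1- libraries was measured by poly(A) RNA sequencing. The authors deposited 1 table of raw counts per gene and library, without normalization. The submitters' processing notes name HISAT2 2.0.5, featureCounts 1.5.0-p3 and mm10, while the annotation release and the use of strand are not given in the sources used here. GENCODE M21 (GRCm38) holds 54409 of the 54532 identifiers, 53462 of them at the coordinates given in the table.

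Totals per library were 17114101 to 18602482 counts. Genes were filtered with filterByExpr (minimum count of 10), scaled by TMM and tested with edgeR 4.0.16 in R 4.3.3 (quasi-likelihood test, Benjamini-Hochberg adjustment over 14801 genes), and the code was tested on simulated data. TPM were computed from the counts and the table's gene lengths, and CPM with TMM factors. A gene was taken as detected with more than 3 counts in a library. The 39 HOX genes lie on 40 rows, since *Hoxd4* has 2, and both are accounted for. Per-library values are given for members detected in all 6 libraries, and other members by counts and range. Other lists are given by their counts, the 3 members with the highest mean TPM and members with an unadjusted p under 0.05, except that values of some single genes are not reported here. Values of other genes named were picked after they were seen. The HOX genes and the lists were chosen with earlier results of these data known.

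Per the study's text, Gli1+ and Gli1- cells were sorted from the same animals. After each population mean was subtracted, the correlation across genes between Gli1+ and Gli1- libraries of one number was 0.223 for number 1, 0.720 for number 2 and 0.471 for number 3. Since every value was over 0.1, libraries of one number were treated as a pair in counts of pairs and in the replicate block. The main fit held the population alone and took no account of the number. Even so, Gli1+ replicate 1 was closer to Gli1- replicate 3 (0.274) than to its own partner. The study gives 3 biological replicates per population, and n is libraries. Promoters and their coordinates are RefSeq's on GRCm38.p6. Alternatives were other scalings, filters, DESeq2 1.42.0, limma-voom (limma 3.58.1), the replicate block and leaving out libraries. Floors of 3 counts cover counting error only, while SEs and intervals of log2FC cover the spread between libraries.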

Additional observations from a re-analysis of the deposited data

How the results depend on the processing

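No HOX gene was called under any of 16 alternative fits, and the smallest adjusted p of a HOX gene was 0.461 (*Hoxc6*, DESeq2 with the replicate block). With the replicate block edgeR called 0 genes in all, and 0 HOX genes. Calls over all genes rose from 0 to 267 without a low-count filter, 30 with the DESeq2 Wald test and 428 with DESeq2 and the replicate block, and stayed at 0 under every other alternative. The cause was not tested. The number of HOX genes with an unadjusted p under 0.05 was 0 to 1 when a single library was left out, the 1 being *Hoxa5* without Gli1+ replicate 2 (log2FC -2.19, unadjusted p = 0.0397 by edgeR, beside 4.97% of all genes past that threshold and lower). HOX genes whose populations did not overlap numbered 0 to 5 when a single library was left out, the 5 again without Gli1+ replicate 2 (*Hoxa2*, *Hoxa5*, *Hoxc5*, *Hoxc6* and *Hoxc9*, beside 27.3% of all genes tested), and 1 on the TPM scale (*Hoxc6*). HOX genes detected in all libraries numbered 12 to 18 when a single library was left out, 15 at 1 count or more and 10 at 10 counts or more (without *Hoxb4* and *Hoxc4*). The genes added at 1 count or more included *Hoxc10* of group 10 and *Hoxd9*. At 10 counts or more, no group 4 gene remained among those detected. The span from group 3 to group 9 without a gap thus depends on the threshold.

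Of 278 log2FC values of single HOX genes under these alternatives, 23 changed sign, and 8 of the 18 genes kept their sign in all. Leaving out 1 library moved *Hoxa3* between -0.34 and 0.14, *Hoxa5* between -2.19 and 0.15, *Hoxa6* between -0.44 and 1.504, *Hoxa7* between -0.55 and 0.32, *Hoxb2* between -1.86 and 0.18, *Hoxb4* between -0.46 and 0.84, *Hoxb6* between -0.92 and 0.039, *Hoxb7* between -0.30 and 1.32, *Hoxc8* between -0.48 and 1.28 and *Hoxc9* between -2.05 and 0.20. Without both libraries numbered 1, *Hoxa6* was at -0.67, *Hoxb4* at -0.18 and *Hoxc9* at 0.23. *Hoxb7* turned to -0.91 with limma-voom, -0.043 with edgeR and the replicate block and -0.21 with DESeq2 and the replicate block, and *Hoxc8* to 0.15, 0.096 and 0.082. The replicate block changed no call of a HOX gene. Values of the weaker members rest on few counts, as 7 HOX genes held 1 to 10 counts in all libraries together.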
